A study of Mus musculus with 2 samples.

Results

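The collagen gene family was followed in spatial expression profiles of mouse pancreatic tumors. Members were chosen by name, as every feature whose symbol reads Col, digits, a, digits and which held at least 100 UMIs (unique molecular identifiers, each counting 1 captured probe molecule) over both libraries. Of 44 matching symbols, 42 passed, among 19465 features in all. Col17a1 and Col19a1 stayed under the minimum. Both tumors were orthotopic allografts, made by injecting KPC cells into the pancreas of mice. KPC cells are mouse pancreatic cancer cells derived from a genetically engineered Pdx-1-Cre animal. The cells of the library labelled KPC-shZEB1 carried a short hairpin against Zeb1, a transcription factor of epithelial-mesenchymal transition, and the cells of the library labelled KPC-shV carried the control vector. The hairpin acts in the injected cells and not in the host's fibroblasts or vessels. By the results text of the study the tissues profiled came from gemcitabine-treated mice, which the sample labels do not state. The methods give the age of the mice bought for such grafts as 4 to 6 weeks, and name several strains without tying one to these sections. The protocol names 2 tumors per group, and 1 library per group was analysed, so each level below is 1 library with its counting error and no difference carries a p-value.

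Collagens are triple-helical proteins of the extracellular matrix. Fibrillar collagens (types I, III and V) form the banded fibers of connective tissue and of the desmoplastic stroma for which pancreatic cancer is known, and fibroblasts are their main source. Type IV collagen forms the sheet-like network of basement membranes under epithelium and around vessels. Type VI forms beaded filaments near cells, FACIT collagens (fibril-associated collagens with interrupted triple helices) sit on the surface of fibrils, and multiplexins are proteoglycan-like collagens of basement membrane zones.

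The libraries held 2220 and 3552 spots and 140493626 and 172059528 UMIs (KPC-shZEB1 and KPC-shV, in this order throughout). A Visium spot covers a small area that can hold several cells. Spots in which a list of 19 digestive enzyme and other acinar genes took over 20% of the UMIs were called acinar-rich. They made up 34.0% and 6.95% of the spots, and 39.0% and 3.73% of the UMIs. Levels are therefore given outside acinar-rich spots as UMIs of a gene per 1000000 UMIs (CPM), over 85651838 and 165648382 UMIs, unless stated. Differences are log2 ratios of KPC-shZEB1 to KPC-shV. Over features with at least 100 UMIs in each library their median was -0.02 there and -0.48 with every spot kept. The targeted gene did not follow its label outside acinar-rich spots, with Zeb1 at 15.6 and 12.7 CPM (log2 ratio 0.30). Over all spots its log2 ratio was -0.20, which lay above the median of -0.48 there. These levels add host and tumor cells together. The libraries shared 1718 barcodes, which in this assay mark slide positions and not cells.

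Collagens took 1.01% of the UMIs outside acinar-rich spots in KPC-shZEB1 and 0.885% in KPC-shV. The fibrillar group was the bulk of this, with 81.2% and 77.5% of the collagen UMIs. Basement membrane collagens made up 5.38% and 10.2%, type VI 6.23% and 4.50%, FACIT 3.49% and 2.44%, and multiplexins 2.22% and 3.50%. Short-chain, anchoring, transmembrane and other collagens each took between 0.0651% and 1.37%. The mix thus differed between the libraries, with a smaller share of basement membrane and multiplexin collagens and a larger share of fibrillar, type VI and FACIT collagens in KPC-shZEB1. UMIs of different genes depend on the probes set against each gene, so these shares describe the libraries and do not rank the proteins.

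**Figure D1:**
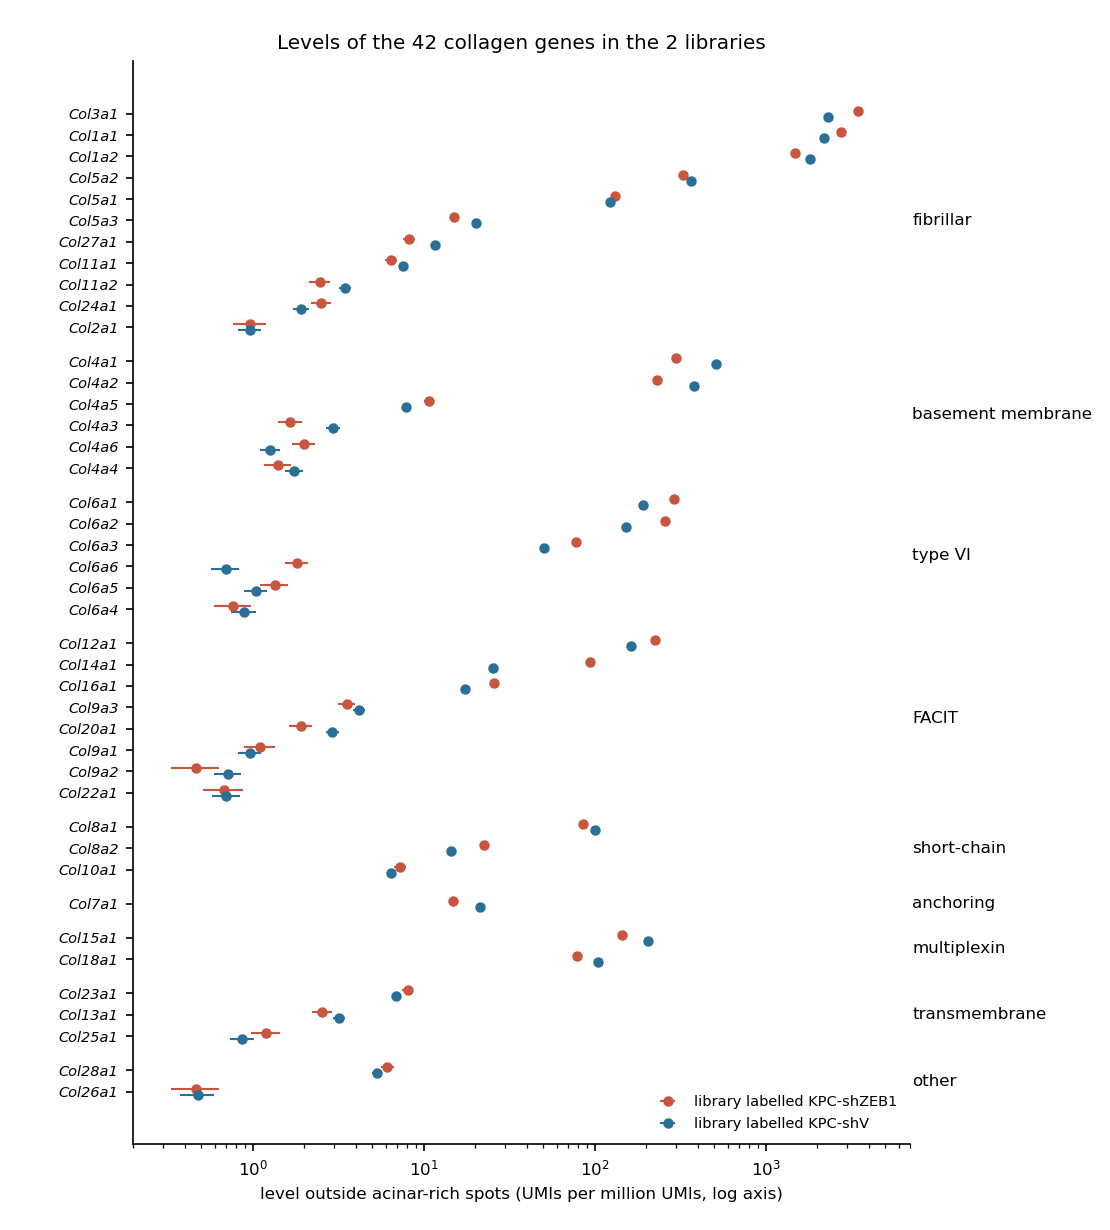
Level of each of the 42 collagen genes outside acinar-rich spots in CPM on a log axis, by collagen group, for the libraries labelled KPC-shZEB1 (red) and KPC-shV (blue). Points are 1 library each and bars are exact 95% Poisson intervals (counting error). Levels ran from 0.467 CPM for Col26a1 to 3469 CPM for Col3a1 in KPC-shZEB1. Most pairs of points lie close together, and those over 2-fold apart are Col14a1 at 94.3 and 25.3 CPM and Col6a6 at 1.81 and 0.694 CPM.

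The summed fibrillar level was 8224 and 6861 CPM, a log2 ratio of 0.26 (95% counting interval 0.26 to 0.27). The major chains did not move together. Col3a1, the sole chain of type III collagen, was at 3469 and 2307 CPM (log2 ratio 0.59, interval 0.58 to 0.60). Col1a1, which supplies the alpha 1 chain of type I collagen, was at 2767 and 2201 CPM (0.33, interval 0.32 to 0.34). Col1a2, the partner chain of type I, went the other way, at 1493 and 1817 CPM (-0.28, interval -0.29 to -0.27). The type V chains, which help to set fibril width, differed little, with Col5a1 at 131 and 123 CPM (0.09) and Col5a2 at 328 and 368 CPM (-0.17). Col27a1, a fibrillar collagen known from cartilage, was at 8.21 and 11.7 CPM (-0.51, interval -0.64 to -0.38). The other fibrillar members, Col2a1, Col5a3, Col11a1, Col11a2 and Col24a1, lay between 0.960 and 20.3 CPM, with log2 ratios from -0.49 to 0.40. With acinar-rich spots kept, the fibrillar log2 ratio was -0.30, and Col1a1 (-0.26) and Col5a1 (-0.50) also turned negative, while Col3a1 stood at 0.04.

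Basement membrane collagens were lower in the library labelled KPC-shZEB1, at 545 against 904 CPM (log2 ratio -0.73, interval -0.75 to -0.72). Nearly all of this level came from the chains that build the ubiquitous type IV network. Col4a1 was at 298 and 511 CPM (-0.78, interval -0.80 to -0.76) and Col4a2 at 231 and 379 CPM (-0.71, interval -0.73 to -0.69). The tissue-restricted chains were sparse: Col4a5 was at 10.7 and 7.90 CPM (0.44), and Col4a3, Col4a4 and Col4a6 lay between 1.27 and 2.95 CPM. A list of 10 genes not expected in this tissue spanned 0.560 to 1.98 CPM, so the last 3 chains are near that floor. Endothelial and pericyte marker levels moved the same way as Col4a1 and Col4a2. The sum of 13 endothelial markers was 371 and 468 CPM (log2 ratio -0.33), and that of 5 pericyte markers 75.5 and 119 CPM (-0.66). A list of 4 lymphatic vessel markers went the other way, at 33.0 and 14.4 CPM (1.19). The part of these lists in the type IV difference was not tested. In tissue spots, fewer cells of a type and less RNA per cell cannot be told apart.

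Type VI and FACIT collagens were higher in KPC-shZEB1, where the sums were 631 against 398 CPM (log2 ratio 0.66, interval 0.65 to 0.68) and 354 against 216 CPM (0.71, interval 0.69 to 0.73). The 3 chains of the common type VI heterotrimer shifted by like amounts. Col6a1 was at 292 and 192 CPM (0.61), Col6a2 at 257 and 153 CPM (0.75) and Col6a3 at 77.5 and 50.6 CPM (0.61). The further type VI chains Col6a4, Col6a5 and Col6a6 were all under 2 CPM, near the floor of genes not expected here, and Col6a6 at 1.81 and 0.694 CPM had a log2 ratio of 1.38 (interval 1.03 to 1.74). With acinar-rich spots kept, the log2 ratios were 0.13 for type VI and 0.11 for FACIT collagens.

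Within the FACIT group the difference was uneven. Col12a1, a FACIT collagen of dense and mechanically loaded tissue, was at 226 and 164 CPM (0.46, interval 0.44 to 0.49). With acinar-rich spots kept, the log2 ratio of Col12a1 was -0.19. Col14a1, its close relative and a known mark of some fibroblasts, was at 94.3 and 25.3 CPM, with a log2 ratio of 1.90 (interval 1.84 to 1.95), a 3.72-fold difference. Col16a1, another fibril-associated collagen, was at 25.8 and 17.5 CPM (0.56), and Col9a1, Col9a2, Col9a3, Col20a1 and Col22a1 lay between 0.467 and 4.18 CPM. Fibroblast markers were also higher in KPC-shZEB1. The 12-gene fibroblast list, none of it at 0 and no collagen among it, was at 791 and 400 CPM (log2 ratio 0.98), of which Dcn alone gave 199 and 83.2 CPM. The 4 surface markers Pdgfra, Pdgfrb, Fap and Thy1 summed to 196 and 132 CPM (0.57). The part of these markers in the type VI and FACIT differences was not tested. The summed fibrillar level differed less than the fibroblast list, and 10.4 and 17.1 fibrillar UMIs were counted per UMI of the list.

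The remaining groups were mixed. The multiplexins Col15a1, found in vessel and muscle basement membranes, and Col18a1, the precursor of endostatin, were lower in KPC-shZEB1, at 145 and 205 CPM (-0.50) and at 79.0 and 105 CPM (-0.41). Col7a1, which forms the anchoring fibrils of epithelium, was at 14.8 and 21.3 CPM (-0.52, interval -0.61 to -0.43). The short-chain genes split, with Col8a1 at 84.9 and 101 CPM (-0.24) and Col8a2 at 22.6 and 14.5 CPM (0.64), while Col10a1 of growth-plate cartilage was at 7.25 and 6.45 CPM (0.17). The transmembrane collagens Col13a1, Col23a1 and Col25a1 and the other members Col26a1 and Col28a1 lay between 0.467 and 8.04 CPM, with log2 ratios from -0.32 to 0.45.

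By a fold of 2 either way, 2 of the 42 collagens were higher in KPC-shZEB1, Col14a1 and Col6a6, where 3.8% of the 19011 features with at least 100 UMIs passed the same limit. No collagen was lower by that fold, against 1.71% of all features. The median log2 ratio over the 42 members was -0.01, against -0.01 over all features tested, with 21 members above 0 and 21 below. The median of the family thus lay at that of all features, while its groups differed from each other. With every spot kept, 8 members passed the lower limit (Col4a1, Col4a2, Col4a3, Col9a2, Col15a1, Col18a1, Col20a1 and Col27a1) where 8.2% of all features did and the median over all features was -0.48. The higher limit was then passed by 2 members, again Col14a1 and Col6a6, and by 2.08% of all features.

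**Figure D2:**
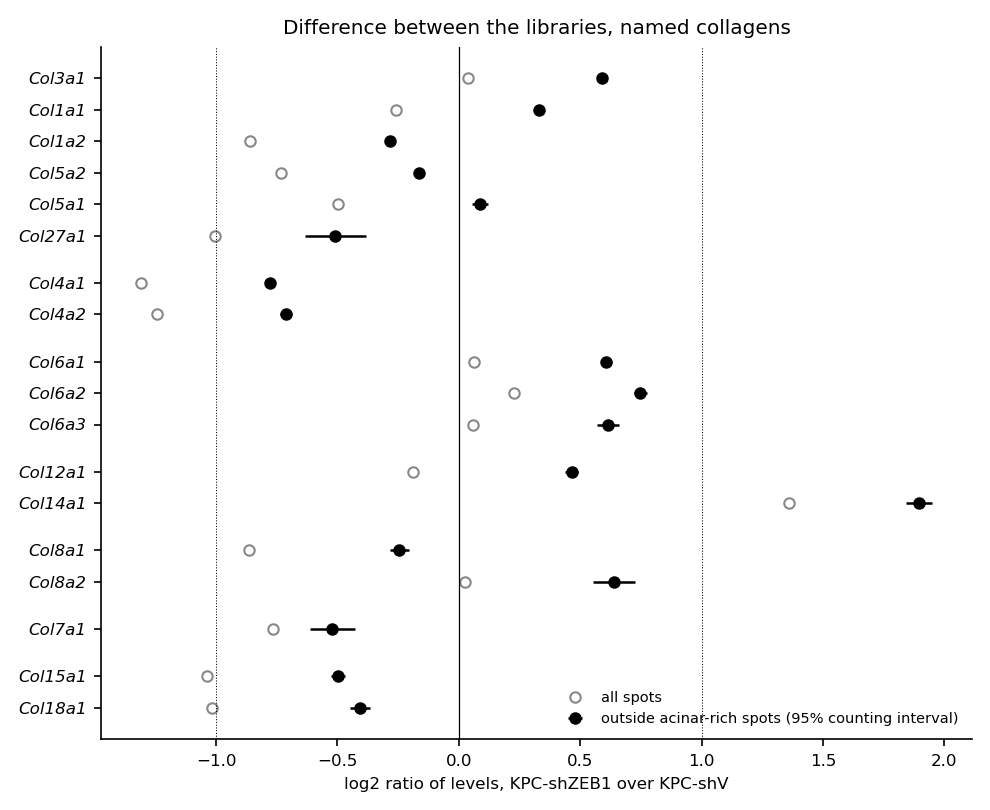
Log2 ratio of levels, KPC-shZEB1 over KPC-shV, for the 18 collagens named by level or size, outside acinar-rich spots (filled, bars are 95% counting intervals) and over all spots (open). Dotted lines mark a log2 ratio of 1 either way. Leaving acinar-rich spots in moved every point to the left. Col14a1 stayed beyond 1 both ways, at 1.90 and 1.36, and Col4a1 fell from -0.78 to -1.31.

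The 5 spot classes asked where each collagen was found. Among spots outside the acinar-rich areas with at least 5000 UMIs, the highest 10% by the share of UMIs from a fibroblast, an endothelial or an epithelial marker list formed fibroblast-rich, endothelial-rich and epithelial-rich spots, with 147 spots each in KPC-shZEB1 and 313 each in KPC-shV. The classes are ranges of a marker share and not cell types. Fibroblast-rich and endothelial-rich spots overlapped in 68 and 108 spots. Median depth differed between the classes, at 37222 and 16301 UMIs for fibroblast-rich, 34842 and 36840 for endothelial-rich and 71545 and 49190 for epithelial-rich spots.

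Fibrillar collagens were highest in fibroblast-rich spots, at 28872 and 41347 CPM, lower in endothelial-rich spots, at 21022 and 21090 CPM, and lowest of these classes in epithelial-rich spots, at 1984 and 1573 CPM. The log2 ratio of fibroblast-rich over epithelial-rich spots was 3.86 in KPC-shZEB1 (interval 3.84 to 3.88) and 4.72 in KPC-shV (4.70 to 4.74). Among major chains Col3a1 had the steepest ratio, 4.11 and 5.39, ahead of Col1a2 (4.02 and 4.84) and Col1a1 (3.77 and 4.28). Col5a2 was less steep, at 2.44 and 3.35. Type VI collagens gave 2.90 and 2.91 and FACIT collagens 3.09 and 3.29, nearly the same in both libraries.

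Basement membrane collagens were spread more evenly over the tissue. Their level was 1181 and 2698 CPM in endothelial-rich spots, 947 and 2605 CPM in fibroblast-rich spots and 352 and 360 CPM in epithelial-rich spots. The log2 ratio of endothelial-rich over epithelial-rich spots was 1.75 in KPC-shZEB1 (1.69 to 1.80) and 2.90 in KPC-shV (2.86 to 2.95). Basement membrane collagens and multiplexins were the groups of at least 100 CPM with a higher level in endothelial-rich than in fibroblast-rich spots in both libraries, by log2 ratios of 0.32 and 0.05 and of 0.15 and 0.23, whereas fibrillar (-0.46 and -0.97), type VI (-0.50 and -0.57) and FACIT (-0.63 and -0.68) collagens were lower there. Per UMI of fibrillar collagen, 0.033 and 0.063 UMIs of basement membrane collagen were counted in fibroblast-rich spots and 0.18 and 0.23 in epithelial-rich spots.

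Counted gene by gene, 30 of 42 collagens in KPC-shZEB1 and 31 of 42 in KPC-shV were at least 2-fold higher in fibroblast-rich than in epithelial-rich spots, where 27.3% and 25.3% of all features were. For endothelial-rich over epithelial-rich spots, 32 and 26 of 42 passed, against 27.8% and 17.6% of all features. These counts include sparse members, such as Col9a2 (40 and 119 UMIs outside acinar-rich spots) and Col6a4 (66 and 147), whose ratios rest on few UMIs per class. Among members of at least 5 CPM in the higher library, Col7a1, Col10a1, Col18a1 and Col27a1 passed the fibroblast-rich comparison in neither library. Col7a1 was at 7.0 and 9.5 CPM in fibroblast-rich spots, 8.1 and 20.3 CPM in epithelial-rich spots and 17.0 and 22.0 CPM in spots of none of the 3 classes. Col10a1 was at 6.8 and 3.0 CPM in fibroblast-rich and 8.9 and 7.5 CPM in epithelial-rich spots. Col18a1 was at 54.8 and 74.4 CPM in fibroblast-rich, 66.7 and 124 CPM in endothelial-rich and 71.8 and 74.3 CPM in epithelial-rich spots, so that in KPC-shV its highest level was in endothelial-rich spots. Col27a1 lay between 7.2 and 12.0 CPM over these 3 classes in both libraries.

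**Figure D3:**
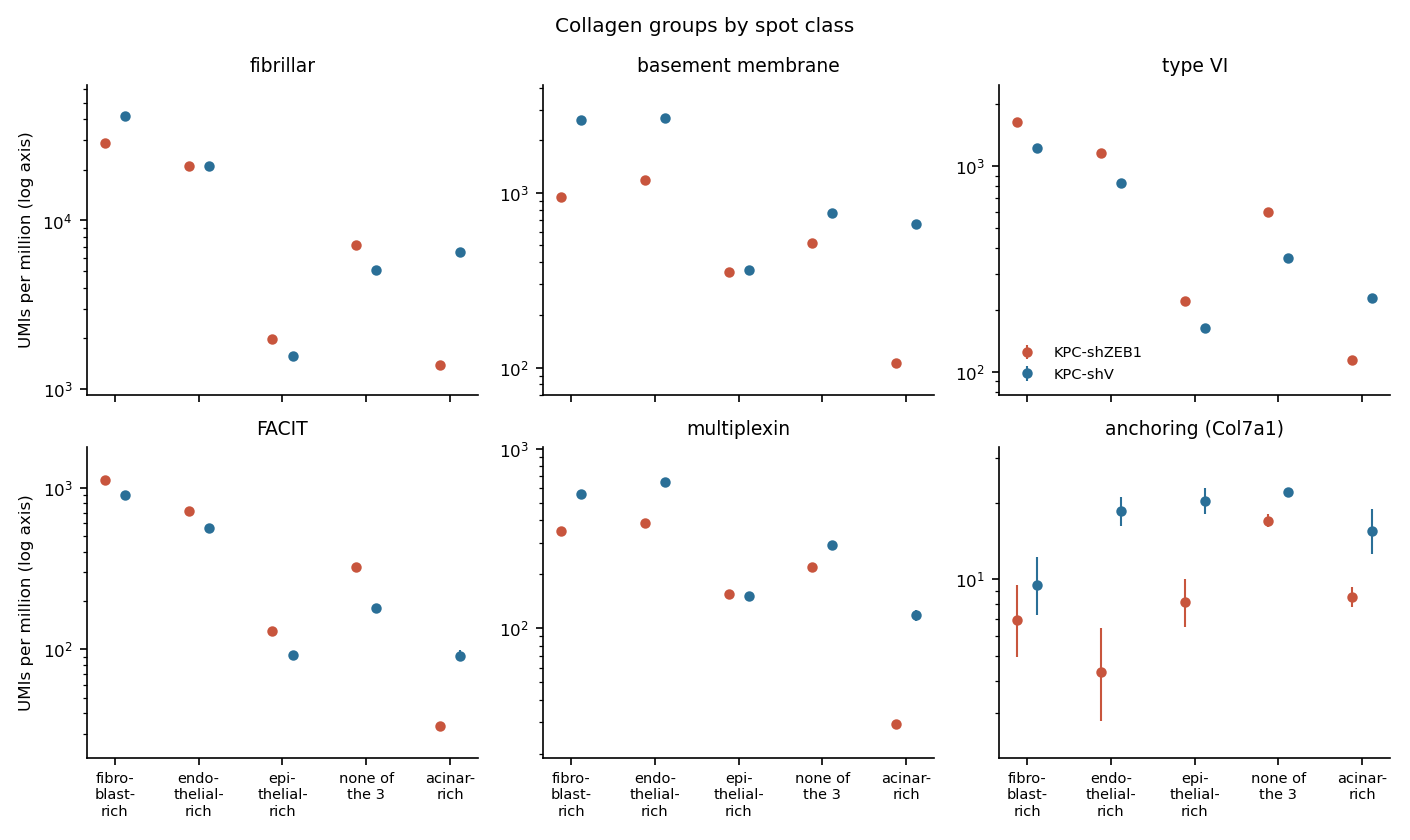
Summed level of 6 collagen groups in CPM on log axes, by spot class, for the libraries labelled KPC-shZEB1 (red) and KPC-shV (blue), with exact 95% Poisson intervals that are mostly smaller than the points. Fibrillar, type VI and FACIT levels fall from fibroblast-rich to epithelial-rich spots in both libraries, basement membrane levels are lower in KPC-shZEB1 in fibroblast-rich (947 and 2605 CPM) and endothelial-rich spots (1181 and 2698 CPM) and near equal in epithelial-rich spots (352 and 360 CPM), and Col7a1 does not follow the fibroblast-rich spots.

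Between the libraries, the basement membrane difference was largest in the fibroblast-rich and endothelial-rich spots of these 4 classes. Its log2 ratio was -1.46 in fibroblast-rich spots, -1.19 in endothelial-rich spots (interval -1.23 to -1.15), -0.58 in spots of none of the 3 classes (514 and 767 CPM) and -0.03 in epithelial-rich spots (interval -0.09 to 0.03). Median depth in fibroblast-rich spots was 37222 and 16301 UMIs, and the part of depth in the value of -1.46 was not tested. Col4a1 was at 635 and 1511 CPM and Col4a2 at 524 and 1167 CPM in endothelial-rich spots. Fibrillar collagens were lower in KPC-shZEB1 within fibroblast-rich spots (-0.52, interval -0.53 to -0.51), near equal within endothelial-rich spots (21022 and 21090 CPM) and higher within epithelial-rich spots (0.34) and spots of none of the 3 classes (0.50). The value for fibroblast-rich spots became 0.06 when classes were formed from spots of at least 20000 UMIs. The fibroblast list was itself at 3680 and 2994 CPM in fibroblast-rich spots, and the acinar list at 18852 and 27304 CPM; the part of these in the difference was not tested. Summed type VI (0.42, 0.49 and 0.44) and FACIT levels (0.30, 0.35 and 0.49) were higher in KPC-shZEB1 in fibroblast-rich, endothelial-rich and epithelial-rich spots. The median FACIT level of a spot was, however, lower in KPC-shZEB1 in fibroblast-rich (657 and 741 CPM) and endothelial-rich spots (370 and 455 CPM). In epithelial-rich spots that median was higher (107 and 63.4 CPM). Col14a1 was higher in each of these classes, at 234 and 152 CPM, 196 and 49.9 CPM and 36.2 and 11.4 CPM, with the largest log2 ratio of the 4 in spots of none of the 3 classes, at 92.6 and 19.9 CPM (2.22).

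Acinar-rich spots, the digestive enzyme-producing tissue of the pancreas, differed most. Their fibrillar level was 1384 CPM in KPC-shZEB1 and 6486 CPM in KPC-shV (237 spots of at least 5000 UMIs), and their basement membrane level 106 and 661 CPM. The acinar list was at 574252 and 389521 CPM in them, which lowers every other level in KPC-shZEB1, and the fibroblast list was at 264 and 855 CPM. Per UMI of the fibroblast list, 5.23 and 7.59 fibrillar UMIs were counted in these spots. The parts of less stroma and of more enzyme RNA per cell in these differences were not tested. The make-up of the collagens in acinar-rich spots, which the total does not touch, differed from that of the other spots. Col12a1 almost vanished, at 2.6 and 11.3 CPM, while Col14a1 was at 25.3 and 48.9 CPM, so that 9.71 and 4.33 UMIs of Col14a1 were counted per UMI of Col12a1 against 0.42 and 0.15 outside acinar-rich spots. Col8a1 was at 4.0 and 7.2 CPM and Col10a1 at 0.3 and 0.2 CPM. Col3a1 gave 2.67 and 3.58 UMIs per UMI of Col1a1 in acinar-rich spots against 1.25 and 1.05 outside them.

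The balance of the type I chains differed between the libraries in every class. Outside acinar-rich spots 1.85 UMIs of Col1a1 were counted per UMI of Col1a2 in KPC-shZEB1 (interval 1.84 to 1.87) and 1.21 in KPC-shV (1.21 to 1.22). The ratio was 1.59 and 1.03 in fibroblast-rich, 1.51 and 1.12 in endothelial-rich, 1.89 and 1.51 in epithelial-rich and 1.43 and 0.76 in acinar-rich spots. Type I collagen is usually built from alpha 1 and alpha 2 chains, and a ratio of UMIs from different probes is no ratio of chains, so the values are to be read between spots and libraries. The type IV pair was steadier, at 1.29 and 1.35 UMIs of Col4a1 per UMI of Col4a2 outside acinar-rich spots, with a range of 1.06 to 1.52 over all classes and both libraries.

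**Figure D4:**
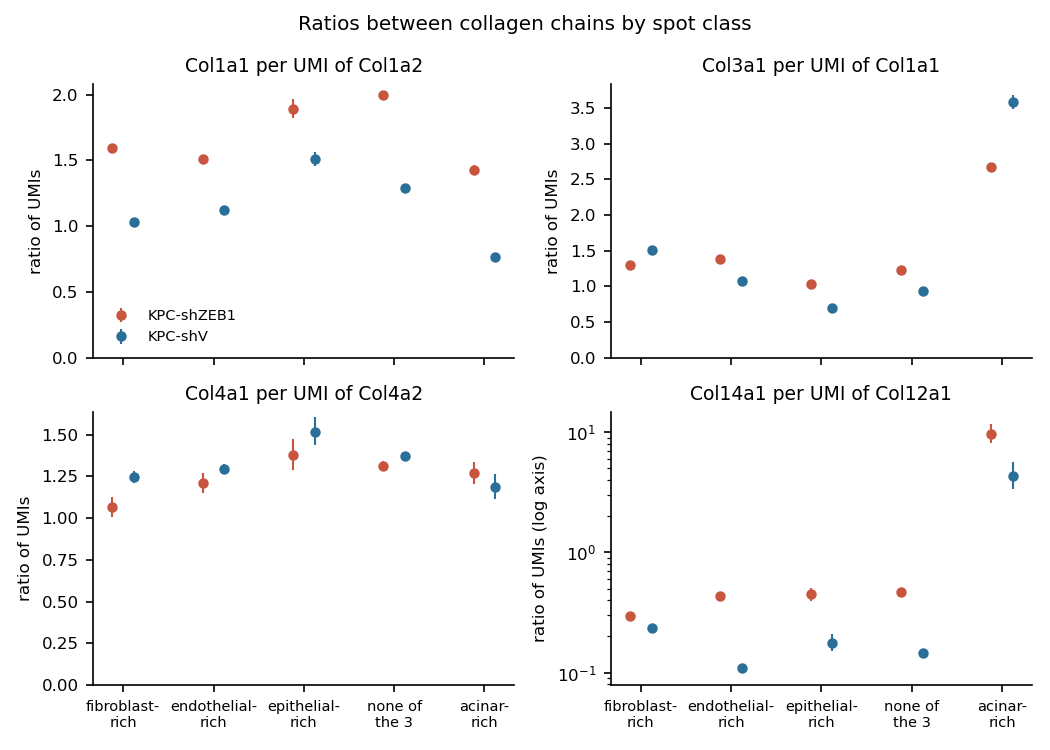
UMIs of a collagen gene per UMI of a second collagen gene in each spot class, for the libraries labelled KPC-shZEB1 (red) and KPC-shV (blue), with 95% counting intervals. The Col14a1 panel has a log axis and the others start at 0. Col1a1 per Col1a2 is higher in KPC-shZEB1 in each class, Col4a1 per Col4a2 stays between 1.06 and 1.52, and Col14a1 per Col12a1 rises to 9.71 and 4.33 in acinar-rich spots.

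Levels varied widely from spot to spot. Over the 1462 and 3130 spots outside acinar-rich areas with at least 5000 UMIs, the fibrillar level had a lowest value of 128 and 84.7 CPM, a median of 4720 and 3160 CPM and a highest of 76767 and 121196 CPM. The 90th percentile lay 19.5 times above the 10th in KPC-shZEB1 and 45.1 times in KPC-shV. Basement membrane collagens were more even, with medians of 506 and 633 CPM and a spread between these percentiles of 5.31 and 12.7 times. The median Col14a1 level was 46.9 and 12.7 CPM, against 82.1 and 91.7 CPM for Col12a1. Over all spots outside acinar-rich areas, the 5% with the most UMIs of a gene were 74 and 166 spots. They held 23.0% and 25.9% of the UMIs of Col3a1 and 44.2% and 30.6% of those of Col12a1. The medians were 12.5% and 12.6% for features of 1000 to 4000 CPM and 12.0% and 12.9% for features of 200 to 1000 CPM. For features of 50 to 200 CPM, where Col12a1 lay in KPC-shV, the medians were 13.7% and 15.0%. Col4a1, at 13.9% and 17.5%, was less concentrated.

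Across the 1462 and 3130 spots of at least 5000 UMIs, collagens that build a common trimer or fiber varied together. Correlations across spots are given as description, since spots of a section share a library, a depth range and neighbors. Spearman's rho was 0.86 and 0.96 for Col1a1 with Col1a2, 0.88 and 0.92 for Col1a1 with Col3a1, 0.87 and 0.77 for Col6a1 with Col6a2 and 0.74 and 0.89 for Col4a1 with Col4a2. The median of the mean rho over 91 pairs of members with at least 50 CPM in both libraries was 0.57. The 5 lowest of these pairs all held Col18a1, with mean rho between 0.00 and 0.04. Col4a5 with Col4a6 and Col4a3 with Col4a4, which are adjacent head-to-head gene pairs, gave 0.06 and 0.02, from counts too sparse to be read.

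Of the 42 members, 33 had a promoter window in the RefSeq table (assembly GRCm38.p6, the sequence of mm10). Col1a1, Col2a1, Col4a3, Col5a2, Col9a3, Col12a1, Col14a1, Col22a1 and Col26a1 had no entry. Promoters are shown for members whose levels moved together across spots, and for Col8a1 as the member of at least 50 CPM with the E-box CAGGTG, a letter sequence that Zeb1 is known to bind. For the first 5 genes, the sequence is the longest stretch of the 250 bases before the RefSeq start that lies outside every GENCODE exon. Capitals mark this E-box or a TATAAA, the core of a TATA element, or the GC-rich letters GGGCGG that Sp1 is known to bind. Both strands were searched, also for the CCAAT element. Col3a1 lies at chr1:45311288-45311537 (plus strand), Col1a2 at chr6:4505370-4505492 (plus), Col6a1 at chr10:76726169-76726294 (minus), Col6a2 at chr10:76623631-76623880 (minus) and Col8a1 at chr16:57754738-57754987 (minus). GENCODE also lists a Col1a2 transcript that begins upstream, at 4504814, so the Col1a2 stretch lies inside that gene model and outside its exons. The last sequence, at chr8:11312805-11312826 (plus), is of another kind, since it lies inside both of the divergent genes Col4a1 and Col4a2, from the RefSeq start of one to that of the other.
Col3a1: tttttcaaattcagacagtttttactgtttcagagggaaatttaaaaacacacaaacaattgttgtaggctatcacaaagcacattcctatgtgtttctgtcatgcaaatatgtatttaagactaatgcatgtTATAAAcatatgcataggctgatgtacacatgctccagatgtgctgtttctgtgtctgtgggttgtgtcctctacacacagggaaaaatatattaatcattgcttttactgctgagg
Col1a2: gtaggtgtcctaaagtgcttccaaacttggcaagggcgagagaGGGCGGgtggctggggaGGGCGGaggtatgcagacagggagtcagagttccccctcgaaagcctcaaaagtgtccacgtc
Col6a1: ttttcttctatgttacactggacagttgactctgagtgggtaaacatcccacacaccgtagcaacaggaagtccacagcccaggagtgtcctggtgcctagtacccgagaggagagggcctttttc
Col6a2: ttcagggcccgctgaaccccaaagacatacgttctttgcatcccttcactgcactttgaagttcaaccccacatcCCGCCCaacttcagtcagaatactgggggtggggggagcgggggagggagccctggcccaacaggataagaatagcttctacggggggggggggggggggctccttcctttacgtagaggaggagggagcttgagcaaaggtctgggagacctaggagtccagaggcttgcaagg
Col8a1: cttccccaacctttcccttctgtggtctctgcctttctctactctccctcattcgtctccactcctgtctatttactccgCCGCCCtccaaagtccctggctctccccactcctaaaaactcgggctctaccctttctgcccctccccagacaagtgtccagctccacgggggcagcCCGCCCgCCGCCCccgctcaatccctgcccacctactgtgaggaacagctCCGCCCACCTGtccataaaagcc
Col4a1 and Col4a2: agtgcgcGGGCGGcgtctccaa

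The type IV chains that varied together thus start from opposite strands within 22 bases of each other, while Col6a1 and Col6a2 lie in tandem on the minus strand and show no common motif among those searched. The Col3a1 sequence has a TATAAA 117 bases before the annotated start, and that of Col1a2 has 2 copies of GGGCGG. In Col8a1 the CAGGTG, read on the other strand 18 bases before the start, overlaps a GGGCGG match. Over the full 250 bases, GGGCGG was present in 21 of 33 collagens (63.6%, against 35.4% of 27025 genes), CCAAT in 12 (36.4%, against 37.5%), TATAAA in 4 (12.1%, against 14.3%) and CAGGTG in 4 (12.1%, against 19.4%). The CAGGTG genes were Col4a4, Col6a5, Col8a1 and Col16a1, whose log2 ratios were -0.32, 0.36, -0.24 and 0.56. A letter match is no binding site, and the windows say nothing about more distant elements.

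The collagens also differed in which marker lists they followed across spots. Col3a1 had rho of 0.86 and 0.88 with the fibroblast list, Col6a2 0.79 and 0.76, and Col1a1 0.69 and 0.82. Col1a2 gave 0.60 and 0.82 with that list, 0.64 and 0.83 with the macrophage list and 0.65 and 0.69 with the endothelial list. For Col5a2 the values were 0.59 and 0.80 with the fibroblast list and 0.61 and 0.78 with the macrophage list. Col4a2 was closest to the endothelial list, at 0.69 and 0.78, ahead of the macrophage (0.55 and 0.77) and fibroblast lists (0.52 and 0.76). Col4a1 gave 0.62 and 0.76 with the endothelial list and 0.43 and 0.75 with the macrophage list. The lead of the endothelial list was thus small in KPC-shV. Macrophage markers followed the same collagens, with 0.61 and 0.82 for Col3a1. Epithelial markers ran opposite, with -0.76 and -0.76 for Col3a1 and -0.43 and -0.66 for Col4a2. Col8a1 had its highest rho with smooth muscle markers, at 0.57 and 0.54. Col14a1 followed the fibroblast list weakly, at 0.22 and 0.40, and Col7a1, Col18a1 and Col27a1 followed none of the 9 lists plotted closely, all between -0.30 and 0.28. Col7a1 (1271 and 3527 UMIs) and Col27a1 (703 and 1935 UMIs) were sparse over the 1466 and 3305 spots outside acinar-rich areas. Their low rho is therefore not to be read as a trait of these genes.

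**Figure D5:**
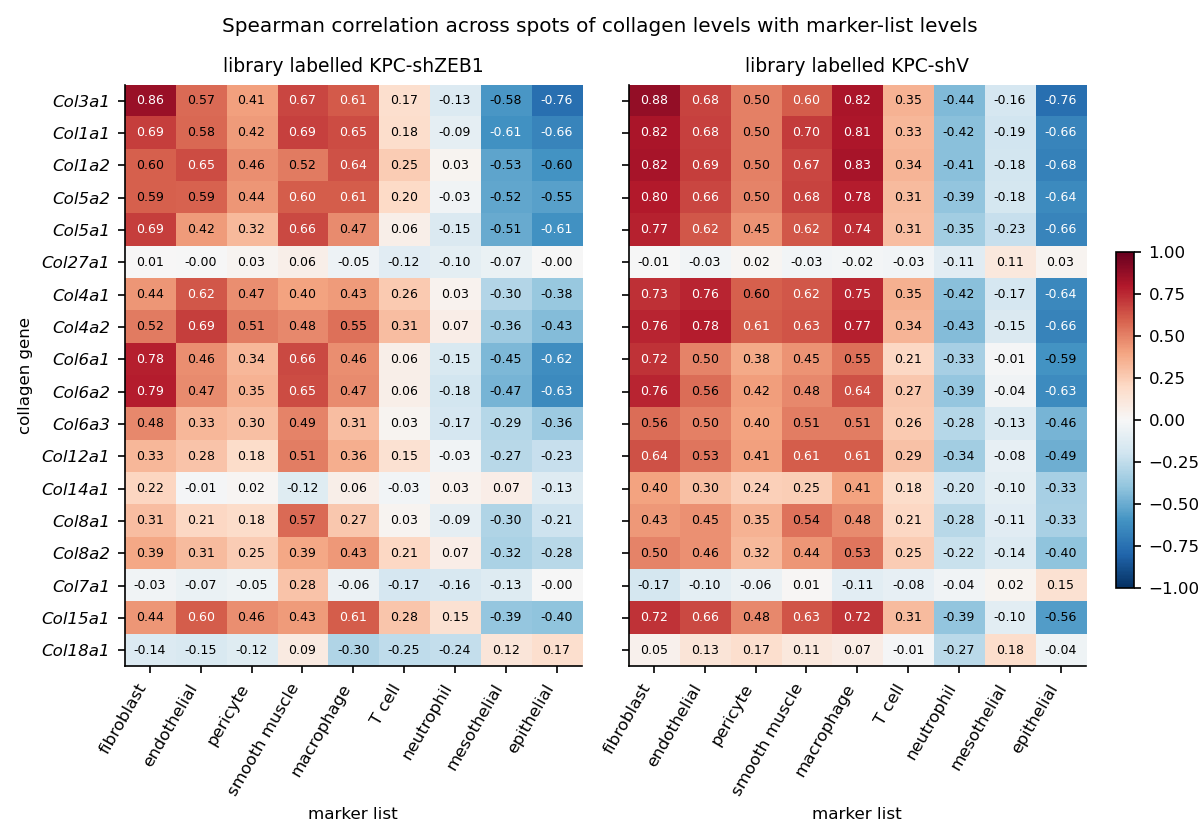
Spearman's rho across spots between the level of each named collagen (rows) and the summed level of each marker list (columns), for 1462 spots of the library labelled KPC-shZEB1 and 3130 spots of KPC-shV, outside acinar-rich areas and with at least 5000 UMIs. Type VI collagens, and fibrillar collagens other than Col27a1, are red with the fibroblast list and blue with the epithelial list. Col4a1 and Col4a2 are strongest with the endothelial list, in KPC-shV only slightly ahead of the macrophage list. Col7a1, Col18a1 and Col27a1 stay between -0.30 and 0.28. The counts of Col7a1 and Col27a1 are sparse, which limits how their rho can be read.

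Of 4201 features compared, those most like the sum of Col1a1, Col1a2 and Col3a1 across spots were Sparc, a collagen-binding matrix protein (mean rho 0.92), Ccdc80 (0.84), Fstl1 (0.84), Gpx3 (0.84), Ppic (0.83), the proteoglycan Bgn (0.82) and the gelatinase Mmp2 (0.81). Those most like Col4a1 with Col4a2 were Igfbp7 (0.73), Gpx3 (0.72), Sparc (0.71) and the endothelial gene Eng (0.70). Slit3, Serping1 and the endothelial gene Plvap came next (each 0.68). Gpx3, Sparc, Slit3, Serping1 and Bgn were among the 10 features most like either sum. The median over all these features was -0.14 and -0.12, and the depth of a spot had a mean rho of -0.23 and -0.20.

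The genes that make, bind and degrade collagen were read against a median log2 ratio of -0.01 over all features tested. Of all those features, 3.8% were at least 2-fold higher and 1.71% at least 2-fold lower in KPC-shZEB1. Of 33 genes of collagen biosynthesis and crosslinking, none passed a 2-fold difference either way, with 18 above and 15 below 0 and a median log2 ratio of 0.17. The chaperone Serpinh1 was at 285 and 208 CPM (0.45), the prolyl hydroxylase subunit P4ha2 at 155 and 242 CPM (-0.65) and the crosslinking enzyme Loxl2 at 80.0 and 153 CPM (-0.94). With every spot kept, 8.2% of all features passed the lower limit. In this list Loxl2 (-1.51), Lox (-1.24), Plod2 (-1.20), P4ha2 (-1.18), Loxl4 (-1.05), Pxdn (-1.01) and P3h4 (-1.01) then did, and Serpinh1 stood at -0.13. Of 11 genes of degradation, 2 were over 2-fold higher in KPC-shZEB1, the stromelysin Mmp3 at 69.0 and 31.8 CPM (1.12) and the fibroblast protease Fap at 28.6 and 13.5 CPM (1.08), and 0 were lower, with 7 above and 4 below 0 and a median of 0.30. Of 10 collagen receptors, 6 lay above and 4 below 0, with a median of 0.31. Ddr2, a receptor kinase for fibrillar collagen, was higher at 45.1 and 15.8 CPM (1.51), whereas its epithelial relative Ddr1 was at 97.2 and 129 CPM (-0.41). Of 18 matrix partners, 9 lay above and 9 below 0, with a median of -0.04. The small proteoglycans Dcn (1.26) and Lum at 110 and 52.4 CPM (1.07), which coat fibrils, were higher. The partners with the highest levels, Fn1 at 1907 and 2552 CPM (-0.42) and Thbs1 at 740 and 1290 CPM (-0.80), were lower. Summed, the partner list was at 4748 and 5867 CPM (-0.31). Dcn, Lum and Fap are also in the fibroblast list. With every spot kept, Mmp3 (0.37), Fap (0.51), Ddr2 (0.95), Dcn (0.82) and Lum (0.57) stayed above 0 but under the 2-fold limit. Among the matrix partners, Thbs1 (-1.42), Lama5 (-1.42), Agrn (-1.20), Nid2 (-1.20), Lamb1 (-1.13), Tnc (-1.08) and Fn1 (-1.05) passed the lower limit then. Of the degradation genes Mmp11 (-1.46), Mmp8 (-1.18) and Mmp14 (-1.12) did, and of the receptors Itga2 (-1.35) and, narrowly, Itga11. Partners of the basement membrane lay on both sides of 0, with the laminin chain Lama5 at 156 and 271 CPM (-0.79), Lamb1 at 267 and 381 CPM (-0.51), Nid1 at 111 and 107 CPM (0.06) and the perlecan gene Hspg2 at 156 and 137 CPM (0.19).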

How the data were processed

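Spatial expression of 1 tissue section library per group was measured with the probe-based Visium CytAssist assay, in which probe pairs are ligated on transcripts and captured on barcoded spots. The authors deposited UMI counts per gene and spot, made with Space Ranger 2.0.1 on mm10 per the labels, over spots selected as tissue; the probe set limits which genes are seen, and UMIs depend on each gene's probes. Counts were summed over spots (Python 3.11.15, numpy 2.4.6, scipy 1.17.1) and divided by total UMIs to give CPM. Exact 95% Poisson, conditional binomial and binomial intervals cover counting error alone. Acinar-rich spots (over 20% of UMIs from 19 acinar genes) were left out of the main levels. A log2 ratio of at least 1 counted as past the fold, among features with at least 100 UMIs. Values are given for members of at least 50 CPM in the higher library and for the 5 largest and 5 smallest ratios among those of at least 5 CPM; other collagens were named after their values were seen. Members and lists were chosen with earlier results of these data known. Interval code was tested on simulated data. No doublet caller, deconvolution or test between groups was run.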

Additional observations from a re-analysis of the deposited data

How the results depend on the processing

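All levels rest on 1 library per group, so sections, tumors and the hairpin cannot be told apart, and no paired analysis was possible because the result comes from no test. The largest dependence was on the acinar-rich spots. With every spot kept, the log2 ratio between the libraries came to -0.37 for all collagens summed, -0.30 for fibrillar and -1.26 for basement membrane collagens, and 8 collagens were at least 2-fold lower, where 8.2% of all features were. With every spot kept and acinar genes out of the total, the values were -0.017, 0.047 and -0.91. A cutoff of 40% for acinar-rich spots gave 0.18, 0.25 and -0.75, and median-of-ratios scaling 0.21, 0.28 and -0.71. Weighting every spot equally gave -0.17, -0.17 and -0.83, with 1 collagen lower (Col9a2). Dropping, for each gene group, its 5% highest spots gave 0.14, 0.21 and -0.71, with 1 collagen lower (Col4a3) and Col4a6 in place of Col6a6 among the higher. In KPC-shV the 5% of spots with the most UMIs of a gene held 100% for Col6a6 and 93.8% for Col4a6. That exchange thus rests on few UMIs. Spots of at least 20000 UMIs, a setting added once the data had been seen, gave 0.31, 0.40 and -0.70. The mean of the genes' own log2 ratios was 0.063, -0.061 and -0.25. Col14a1 passed the 2-fold limit under each of these settings. Direction was followed for the 18 collagens named by level or size and for Col6a6. Of these 19, 16 kept it under all alternatives run (the others were Col1a1, Col5a1 and Col12a1). Alternatives with a ratio numbered 8 for Col6a6 and 9 for each of the 18. Among other members given a value, Col4a5 (-0.09), Col6a5 (-0.11), Col10a1 (-0.45) and Col16a1 (-0.06) turned negative with every spot kept. The cause of the remaining movements was not tested.

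For fibrillar collagens in fibroblast-rich over epithelial-rich spots, classes of the highest 20% gave 3.30 in KPC-shZEB1 and 3.91 in KPC-shV, 1 cutoff for both libraries 3.58 and 4.95, classes without shared spots 3.89 and 4.74, equal spot weights 3.80 and 5.09, and a fibroblast list of Pdgfra, Pdgfrb, Fap and Thy1 3.67 and 4.39. In KPC-shV the highest 5% gave 5.35 and spots of at least 20000 UMIs 4.14. For basement membrane collagens in endothelial-rich over epithelial-rich spots, the highest 5% gave 1.91 and 3.28, the highest 20% 1.41 and 2.40, spots of at least 20000 UMIs 1.68 and 2.79, equal weights 1.82 and 3.17, and classes without shared spots 2.79 in KPC-shV. Within fibroblast-rich spots the fibrillar log2 ratio between the libraries was -0.71 with the highest 5%, -0.27 with the highest 20%, -0.76 with 1 cutoff, -0.75 with equal weights, -0.38 with the shorter fibroblast list and 0.061 at 20000 UMIs or more, so its sign turned without the shallower spots. Within endothelial-rich spots the basement membrane log2 ratio was -1.09 with 1 cutoff, -1.11 without shared spots, -1.14 at 20000 UMIs or more and -1.29 with equal weights.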
